A study of Mus musculus with 33 samples.

Results

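Iron handling and peroxide defence were followed through 10 genes in microglia, the resident macrophages of the brain, sorted from mice with and without the transcription factor IRF8. They were chosen by name, out of 54146 genes counted: the ferritin subunits Fth1 and Ftl1, the iron transporters Slc11a1 and Slc40a1, the transferrin receptor Tfrc, the haem oxygenase Hmox1, the peroxiredoxins Prdx1, Prdx5 and Prdx6, and thioredoxin, Txn1. All 10 passed the filter on low counts in every comparison. The question put with the list is how the 5xFAD effect compares with and without Irf8. Results of these data were known when the list was chosen, and which measured values it was selected on is not recorded, so their 5xFAD values are given as a description, with standard errors and no p-values.

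The 33 libraries fell into 10 groups, and every label gives C57BL/6 mice and female sex. Germline IRF8KO mice and WT controls gave 4 libraries per genotype at the age of 3 months and 3 per genotype at 9 months. The 5xFAD model expresses mutant human amyloid genes from a neuronal promoter, and it was sampled at 9 months on a background with Irf8 (5xFAD) and without it (5xFAD/IRF8KO), with 3 libraries per genotype. Batf3-/- mice, here Batf3KO, lack a transcription factor that partners IRF8 in dendritic cells. They were profiled at 3 months beside a WT group of their own (3 each). In the conditional experiment, 3 libraries came from IRF8flox mice, here flox, and 4 from IRF8flox mice carrying Cx3cr1CreERT2, here Cre or IRF8cKO. Cx3cr1 is active in microglia and in other macrophages. Both of these groups received tamoxifen on 5 days from postnatal day 12 and were profiled at 3 months. YFP-positive cells were sorted in this experiment, while the gate used for mice without Cre is not stated in the labels. Nor do the labels say whether libraries of a group came from separate mice, so p-values measure the spread between these libraries only.

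Ferritin is a shell of heavy (Fth1) and light (Ftl1) chains that stores iron in the cytosol. The heavy chain oxidises ferrous iron as it enters the shell. Cells take up iron through the transferrin receptor, export it through ferroportin, encoded by Slc40a1, and move it out of phagosomes through the macrophage transporter NRAMP1, encoded by Slc11a1. Hmox1 opens the haem ring and frees its iron. Peroxiredoxins reduce peroxides, and thioredoxin recharges most of them. Free iron turns peroxide into radicals, so the iron and peroxide systems are usually described together, and microglia near amyloid plaques are known to be rich in ferritin.

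Iron regulatory proteins bind a short hairpin, the iron-responsive element. In a 5′ UTR the bound hairpin holds back translation, and in the 3′ UTR of Tfrc it protects the mRNA. A search of 21870 principal transcripts of GENCODE M21 (GRCm38) for the loop CAGTGN on an upper stem of 5 pairs (G·T allowed) above an unpaired C found a match in 263 genes, 1.2% of them. The match was present in 4 of the 10 genes, and the capitals mark the loop. These sites are shown because they tie the storage, export and uptake genes together, and because RNA counts do not read the step of translation that they control.

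Fth1, 5′ UTR, chr19:9982738-9982754, plus strand: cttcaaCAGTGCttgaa
Ftl1, 5′ UTR, chr7:45459785-45459801, minus strand: cttcaaCAGTGTttgaa
Slc40a1, 5′ UTR, chr1:45925471-45925487, minus strand: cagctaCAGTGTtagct
Tfrc, 3′ UTR, chr16:32631225-32631241, plus strand: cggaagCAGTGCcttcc
Tfrc, 3′ UTR, chr16:32631604-32631620, plus strand: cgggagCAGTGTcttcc
Tfrc, 3′ UTR, chr16:32631669-32631685, plus strand: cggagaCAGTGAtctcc
Tfrc, 3′ UTR, chr16:32631716-32631732, plus strand: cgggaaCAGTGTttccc

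Among the other genes of the pathway, Alas2 and Keap1 also held a match. Promoters of 300 bases were available from RefSeq (GRCm38.p6) for 7 of the 10 genes, and not for Slc40a1, Prdx6 and Hmox1. Of these 7, Prdx1 alone held the antioxidant response element core, TGACNNNGC, which 12.4% of 32851 promoters hold on either strand. The plus strand of chr4:116685458-116685482 reads gggaaagcGCTGAGTCAtcccccgt, with the match, which is on the minus strand, in capitals. It overlaps 1 of the 2 AP-1 matches (TGANTCA, 7.81% of promoters) of the same promoter, the other being cgaggaaaTGACTCAaagggcag at chr4:116685354-116685376. Motifs of the PU.1-IRF composite element and the interferon response element were found in 2.72% and 3.44% of all promoters and in none of the 7.

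Counts in genes ran from 605376 to 18357762 per library. Irf8 reads were lower in every IRF8KO library than in every control of its age, but the library labelled Cre replicate 1 held 1134 CPM (a count scaled to library size) of Irf8, inside the flox range of 972 to 1244 CPM, against 366 to 521 CPM in the other Cre libraries. Markers of microglia summed to 2.86% to 6.9% of counts in 19 libraries (WT and 5xFAD at 9 months, the Batf3KO experiment and the conditional experiment). In the other 14 libraries (WT and IRF8KO at 3 months, IRF8KO and 5xFAD/IRF8KO at 9 months) they summed to 0.367% to 2.2%. Those 14 also held neutrophil markers at 0.862% to 16.6% and red blood cell markers at 0.926% to 16.0%, against at most 0.0112% and 0.188% in the 19. Oligodendrocyte, monocyte and astrocyte markers reached 6.32%, 1.66% and 0.826% in the 14, and 0.0523%, 0.00149% and 0.0387% in the 19. Neuron markers were at 0.184% to 0.38% in the conditional experiment and 0.0104% to 0.362% in the 14. They were at most 0.000826% in WT and 5xFAD at 9 months. Sall1, a defining microglial gene, was at 0 in all 5xFAD/IRF8KO libraries, while 9 of the 10 microglial markers averaged 5 CPM or more there. Against the female label, Y-linked transcripts were present in all libraries of the germline 3-month and the 9-month experiments except 5xFAD replicates 1 and 2.

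With Irf8 present, ferritin heavy chain RNA was several-fold higher in 5xFAD than in WT microglia at 9 months. Fth1 (chr19:9980598-9985098, ENSMUSG00000024661.6) stood at 856, 957 and 695 CPM in the 3 WT libraries and at 2909, 3002 and 2992 CPM in the 3 5xFAD libraries. CPM values in comparisons are scaled by TMM, a trimmed-mean correction for library composition, within the experiment concerned. The groups did not overlap, and the fitted difference was 1.83 ± 0.22 (log2 fold change ± SE, n = 3 per group), or 3.55-fold. Without Irf8, Fth1 was high whether or not the transgenes were present, at 5495, 4892 and 3880 CPM in the IRF8KO libraries and 4141, 3893 and 3742 CPM in those of 5xFAD/IRF8KO. Here the groups overlapped and the 5xFAD difference was -0.28 ± 0.21. The 5xFAD effect without Irf8 was therefore lower than that with Irf8 by a log2 difference of -2.10 ± 0.30. The cells sorted differed between these settings. Microglial markers were at 0.367% to 0.904% of counts without Irf8 and at 5.31% to 6.53% with it. Neutrophil markers were at 6.51% to 14.9% and at most 0.000496%. The part of these cells in this and the other differences of the 5xFAD effects was not tested.

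The light chain was also lowest in WT, but its highest mean was in 5xFAD, and its spread was wider. Ftl1 (chr7:45457944-45459884, minus strand) was at 395, 339 and 225 CPM in WT and at 783, 1010 and 871 CPM in 5xFAD. Its log2 difference was 1.47 ± 0.38 with Irf8 and -0.33 ± 0.37 without. In IRF8KO the libraries were split, at 923, 852 and 274 CPM, and 5xFAD/IRF8KO stood between, at 555, 518 and 554 CPM. Ftl1 shares exon bases with the annotated genes Gm22133 and Gm10252, and the pseudogene Ftl2-ps drew 25098 counts over all libraries against 182764 for Ftl1, so its values are uncertain.

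**Figure D1:**
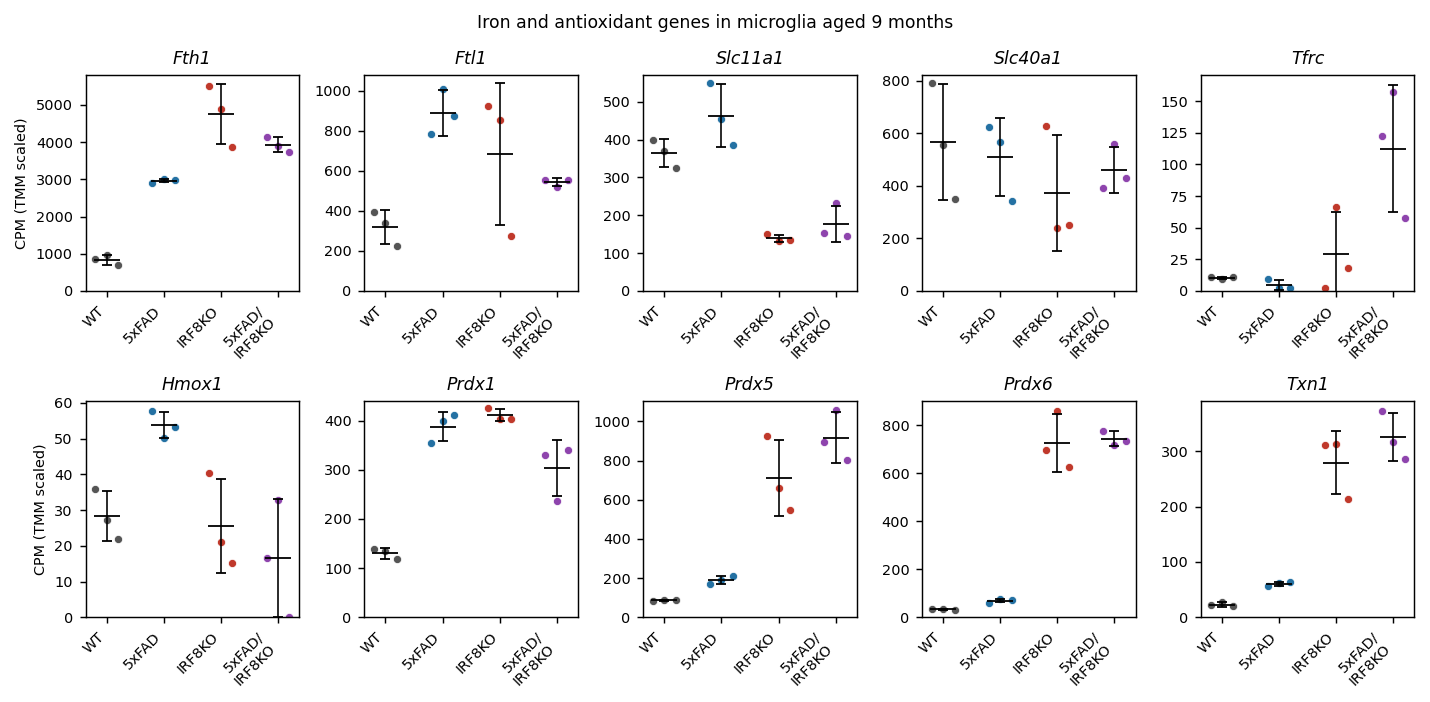
Level of the 10 genes in the 12 libraries aged 9 months, in CPM with TMM scaling (linear axes from 0), with 1 point per library and bars for the mean ± SD of each group. Fth1 lies between 695 and 957 CPM in WT and at 2909 CPM or more in each of the other 9 libraries, while Slc11a1 is lower in the 6 libraries without Irf8.

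Of the peroxide genes, Prdx1 (chr4:116685544-116700822), the main cytosolic peroxiredoxin, was lowest in WT, as Fth1 was: 138, 134 and 118 CPM in WT, 354, 399 and 410 CPM in 5xFAD, 425, 404 and 403 CPM for the IRF8KO libraries, and 331, 237 and 340 CPM for those of 5xFAD/IRF8KO. Its 5xFAD difference was 1.57 ± 0.21 with Irf8 and -0.44 ± 0.20 without, and both pairs of groups were free of overlap, in opposite directions. Prdx5, a peroxiredoxin found in mitochondria and peroxisomes, was higher in 5xFAD than in WT by 1.11 ± 0.23, from 85.2 to 90.3 CPM in WT to 170 to 210 CPM in 5xFAD. Prdx6, which also acts on phospholipids, was higher by 1.03 ± 0.21, from 30.4 to 35.9 CPM to 60.8 to 74.4 CPM. Txn1 was higher by 1.40 ± 0.25, from 19.4 to 27.7 CPM to 56.8 to 63.1 CPM.

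For these 3 genes the level without Irf8 was far above both WT and 5xFAD. Prdx5 lay between 548 and 1056 CPM, Prdx6 between 625 and 860 CPM and Txn1 between 214 and 373 CPM over the 6 libraries without Irf8. The 5xFAD difference within them was 0.37 ± 0.23 for Prdx5, 0.03 ± 0.20 for Prdx6 and 0.22 ± 0.24 for Txn1. The effect without Irf8 was lower than that with Irf8 by -0.74 ± 0.33, -1.0 ± 0.29 and -1.18 ± 0.34. Prdx5 shares 409 exon bases with Trmt112 on the opposite strand, and the counting ignored strand.

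The transporters did not follow ferritin. Slc11a1 was at 399, 371 and 325 CPM in WT and at 551, 454 and 385 CPM in 5xFAD, with overlap. Without Irf8 it was at 150, 132 and 134 CPM, and with the transgenes as well at 152, 232 and 145 CPM. The 5xFAD difference was 0.35 ± 0.24 in both settings, so that the difference between them was 0.002 ± 0.33. Slc40a1 overlapped between all 4 groups, over a range from 239 to 791 CPM, with 5xFAD differences of -0.15 ± 0.41 with Irf8 and 0.30 ± 0.41 without.

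Tfrc rested on few counts in WT and 5xFAD (5 to 103) and in IRF8KO replicate 1 (18), but reached 1694 in 5xFAD/IRF8KO. Hmox1 ran from 0 to 634 counts over the 12 libraries. Tfrc was at 10.9, 9.71 and 10.9 CPM in WT and at 9.38, 2.64 and 2.59 CPM in 5xFAD, where the shallowest library held 5 counts. In IRF8KO it was at 2.36, 66.5 and 18.3 CPM, and in 5xFAD/IRF8KO at 122, 157 and 58.0 CPM. The 5xFAD difference was -1.05 ± 0.92 with Irf8 and 1.95 ± 0.90 without. Hmox1 was at 35.9, 27.2 and 21.9 CPM in WT and at 57.7, 50.3 and 53.3 CPM in 5xFAD, a difference of 0.92 ± 1.15 with no overlap. That SE comes from the fit of all 12 libraries, among them the 5xFAD/IRF8KO library with 0 counts. It does not measure the spread of WT and 5xFAD alone, whose own fit gave a difference of 0.79. Without Irf8 Hmox1 was at 40.4, 21.0 and 15.2 CPM. In 5xFAD/IRF8KO it was at 16.7 and 32.9 CPM, and replicate 3 held 0 counts, which allows up to 0.278 CPM (3 counts).

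**Figure D2:**
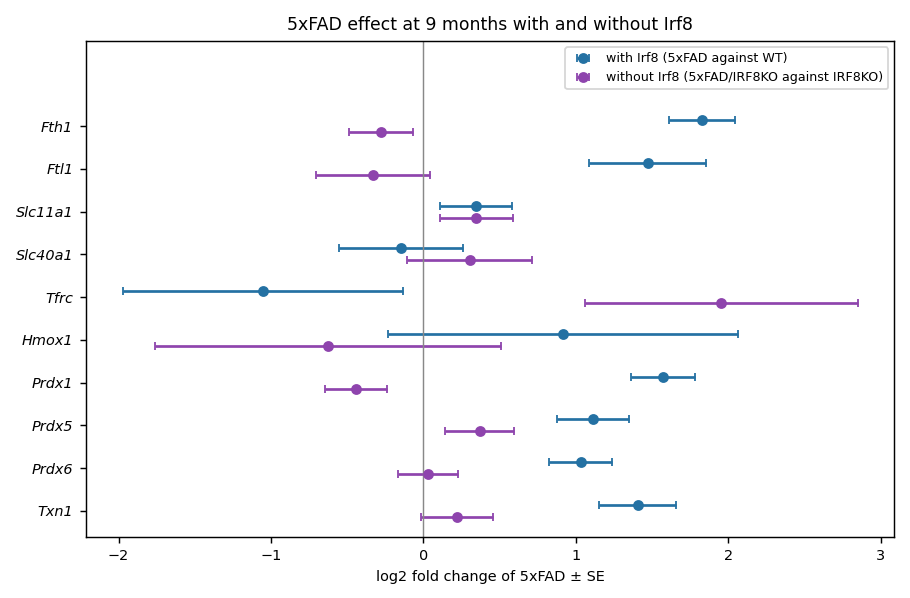
Log2 fold change of 5xFAD for each gene with Irf8 (5xFAD against WT, blue) and without it (5xFAD/IRF8KO against IRF8KO, purple), with bars for the standard error and 3 libraries per group. With Irf8 the 6 ferritin, peroxiredoxin and thioredoxin genes lie between 1.03 and 1.83, and without it between -0.44 and 0.37.

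Counted over the list, 7 of the 10 genes were higher in 5xFAD than in WT without overlap and 1, Tfrc, was lower, where 23.0% and 15.3% of 14604 genes did so. Without Irf8, 0 were higher and 1, Prdx1, was lower, against 5.45% and 5.55%. At an adjusted p under 0.05 in edgeR's quasi-likelihood test, 5 of the 10 were among the 1.99% of genes called in 5xFAD against WT, 0 among the 0.164% called without Irf8 and 2 among the 0.438% called for the difference of the effects. These counts are given as a description and nothing is read from them, since the choice of genes names these comparisons. The count of 5 fell to between 0 and 2 when any 1 library of either group was left out, with 0 left without WT replicate 1, WT replicate 3 or 5xFAD replicate 2. The calls over all genes fell from 290 to between 2 and 102 in the same runs. The fit of only WT and 5xFAD called 7 of the 10 and 4546 of all genes. The count of 2 for the difference fell to 0 without any 1 of the 3 WT libraries or of 5xFAD replicates 2 and 3. Over all genes, runs without 1 library called 2 to 189 for the difference, against 64 with all libraries. Over the 13 alternatives run, the log2 difference of Fth1 with Irf8 lay between 1.68 and 1.95.

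Several measures moved with these values. The 82 ribosomal protein genes had a median log2 difference of 1.60 in 5xFAD against WT, with 81 of them above 0, of -0.09 without Irf8, and of -1.68 for the difference of the effects. They made up 0.297% to 0.363% of counts in WT and 0.587% to 0.988% in 5xFAD. Immediate early genes of tissue handling, 13 in number, summed to 0.137% to 0.326% in WT and 0.0386% to 0.0489% in 5xFAD. All 3 WT libraries and 5xFAD replicate 3 held Y-linked transcripts, and 5xFAD replicates 1 and 2 held 0. Fth1 in 5xFAD replicate 3 was 2992 CPM, against 2909 and 3002 CPM in replicates 1 and 2. As every WT library held Y-linked transcripts, this 1 library cannot tell sex and 5xFAD apart, and the part of sex was not tested. The part of the ribosomal and handling genes in the differences of the 10 genes was not tested. Neutrophil markers were at or under 0.000496% in all WT and 5xFAD libraries, and 8 of 13 were at 0 in all WT libraries.

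Some other genes of the antioxidant system were also higher in 5xFAD. Their list, too, was chosen with earlier results of these data known, so the p-values here carry that limit. Of 43 tested, 5 rose in 5xFAD against WT and 0 fell, where 1.99% of all genes were called in either direction. The median of the 43 was 0.96 against 0.002 over all genes. Mt1, a metallothionein, rose by 1.92 ± 0.29, from 59.5 ± 6.37 to 226 ± 53.8 CPM (mean ± SD, n = 3; edgeR adjusted p = 0.0145). The glutathione peroxidases Gpx1 and Gpx4 rose by 1.53 ± 0.25 (edgeR adjusted p = 0.0153) and 1.39 ± 0.22 (edgeR adjusted p = 0.0147), and Txn2 and Park7 also passed. Without Irf8 none of the 43 passed, with 4 at an unadjusted p under 0.05 in edgeR and 0 called by DESeq2. For the difference of the effects Mt1 (-2.35 ± 0.40, edgeR adjusted p = 0.0339) and Gpx4 (-1.56 ± 0.30, edgeR adjusted p = 0.0495) passed. These calls were fragile: without 1 library the count of 5 fell to between 0 and 3, and that of 2 ranged from 0 to 4. Both were at 0 when WT replicate 1 was left out. Such runs called 2 to 102 of all genes for 5xFAD against WT, against 290 with all libraries. Of 32 other iron genes and 13 regulators tested, 0 passed in either 5xFAD comparison, with 7 and 0 at an unadjusted p under 0.05 with Irf8, 1 and 1 without, and 0 called by DESeq2. A fit of the 5xFAD and WT libraries alone called 4546 genes in all, among them 23 of the antioxidant genes, 15 of the iron genes and 4 of the regulators.

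Loss of Irf8 at 9 months was tested on the same genes and libraries, so the limit on the choice of the 10 genes holds here too. Of the 10, 6 rose and 1 fell in IRF8KO against WT, where 19.6% of genes rose and 8.68% fell. Prdx6 rose 21.7-fold (4.44 ± 0.23, edgeR adjusted p = 8.01e-07), Txn1 12.2-fold (3.60 ± 0.27, edgeR adjusted p = 3.6e-06) and Prdx5 8.1-fold (3.02 ± 0.25, edgeR adjusted p = 7.04e-06). Fth1 rose 5.69-fold (2.51 ± 0.22, edgeR adjusted p = 1.09e-05) and Prdx1 3.15-fold (1.66 ± 0.21, edgeR adjusted p = 0.000133). Slc11a1 fell to 0.38 of its WT level (-1.40 ± 0.24, edgeR adjusted p = 0.00124). These 6 genes passed in all 13 alternatives run, each in the same direction. Ftl1 passed narrowly at 1.09 ± 0.38 (edgeR adjusted p = 0.0479) with overlapping groups. It missed with the fit of only these groups (edgeR adjusted p = 0.101), and the call was lost without any 1 of the WT libraries or of IRF8KO replicates 1 and 2 (edgeR adjusted p from 0.105 to 0.208). Slc40a1, at -0.60 ± 0.41, passed in 1 alternative, without IRF8KO replicate 1 (-1.32, edgeR adjusted p = 0.02).

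On the 5xFAD background, 4 of the 10 rose without Irf8 and 1 fell, where 18.0% of genes rose and 9.72% fell. Prdx6 rose 10.8-fold (3.44 ± 0.22, edgeR adjusted p = 1.57e-06), Txn1 5.35-fold, Prdx5 4.84-fold and Tfrc 22.2-fold (4.47 ± 1.01, edgeR adjusted p = 0.0064). Slc11a1 fell to 0.38 of its level (-1.39 ± 0.24, edgeR adjusted p = 0.0013). Fth1 (0.40 ± 0.21, 95% interval -0.06 to 0.86) and Prdx1 (-0.36 ± 0.20, 95% interval -0.80 to 0.09) did not pass, although the libraries of the groups did not overlap. Ftl1 (-0.71 ± 0.38, 95% interval -1.53 to 0.10) and Hmox1 (-1.70 ± 1.16) were lower without overlap and did not pass either, but Ftl1 did in the fit of only these groups (-0.75, edgeR adjusted p = 0.0202). In all, 5 of the 10 were higher and 4 lower without overlap, where 25.4% and 23.2% of genes were. The count of 5 was the same without each library in turn. The IRF8KO and 5xFAD/IRF8KO libraries held neutrophil markers at 6.51% to 14.9% of counts and microglial markers at 0.367% to 0.904%, against 5.31% to 6.53% microglial markers in WT and 5xFAD. The ribosomal protein genes had a median of 1.60 in IRF8KO against WT and of -0.13 on the 5xFAD background. The part of these other cells and genes in the differences was not tested, and in bulk RNA fewer cells of a type and less RNA per cell cannot be told apart.

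The wider pathway moved in both directions in these comparisons. Of 43 other antioxidant genes, 26 rose and 4 fell in IRF8KO at 9 months, where 19.6% of all genes rose and 8.68% fell. The median of the 43 was 1.82 against 0.25 over all genes. On the 5xFAD background 17 rose and 5 fell, where 18.0% and 9.72% of all genes did so (median 0.86 against 0.24). Gstm1, a glutathione transferase, rose from 6.88 ± 2.81 to 574 ± 252 CPM (edgeR adjusted p = 4.34e-06). Selenop, a secreted selenium carrier abundant in microglia, fell from 1420 ± 175 to 362 ± 3.32 CPM (edgeR adjusted p = 6.73e-05). Mgst1 stood at 348 ± 185 CPM and Mt2 at 16.7 ± 4.23 CPM in IRF8KO, where the WT libraries held 1 count each in sum, and Txnip and Sesn1 fell. On the 5xFAD background Gsr, glutathione reductase, rose from 15.7 ± 2.16 to 1150 ± 363 CPM (edgeR adjusted p = 3.32e-06), while Selenop, Msrb2 and Prdx4 fell. Prdx4 passed in 7 of 13 alternatives, and was lost without any 1 of the 5xFAD libraries or of 5xFAD/IRF8KO replicates 1 and 2 (edgeR adjusted p from 0.0569 to 0.0839).

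Of 32 other iron genes, 10 rose and 4 fell in IRF8KO at 9 months, where 19.6% of all genes rose and 8.68% fell. On the 5xFAD background 9 rose and 6 fell, where 18.0% and 9.72% of all genes did so. Cp, the ferroxidase ceruloplasmin, rose from 3.7 ± 1.1 to 173 ± 71.5 CPM (edgeR adjusted p = 1.1e-05). Hp, the haemoglobin scavenger haptoglobin, stood at 1290 ± 557 CPM against 1 count in the WT libraries, and Cd163, its receptor and itself on the list of border macrophage markers, at 19.4 ± 16.4 CPM. Lrp1, the haemopexin receptor, fell from 332 ± 43.5 to 21.2 ± 11.3 CPM (edgeR adjusted p = 0.000443), Slc46a1, which carries haem and folate, from 157 ± 18.1 to 27.3 ± 11.8 CPM (edgeR adjusted p = 0.000694), and Hfe from 225 ± 26.9 to 72.4 ± 39.6 CPM (edgeR adjusted p = 0.00603). Of 13 regulators 1 passed, Epas1, which rose to 29.8 ± 16.5 CPM from 3 counts in WT. Hmox2 fell on the 5xFAD background to 52.6 ± 2.43 from 156 ± 11.5 CPM (edgeR adjusted p = 0.00516).

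**Figure D3:**
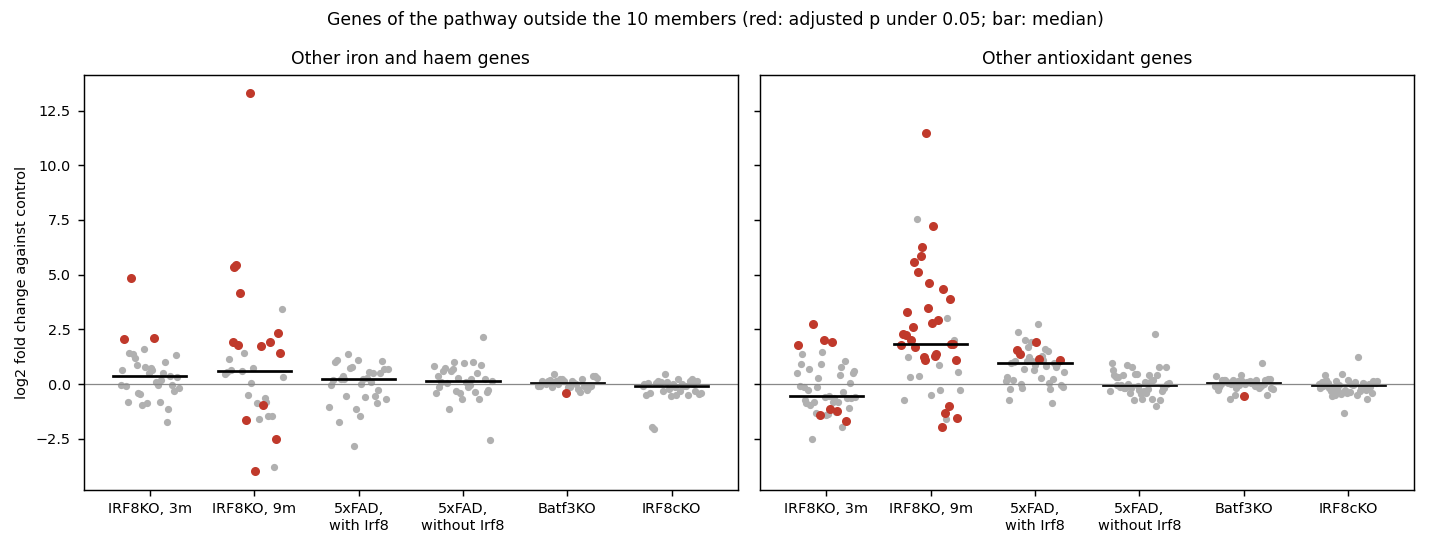
Log2 fold change against the control of each comparison for the other iron and haem genes (left) and other antioxidant genes (right), with 1 point per gene in red where the edgeR adjusted p is under 0.05 and a bar at the median. The antioxidant median is 1.82 for IRF8KO at 9 months, 0.96 for 5xFAD with Irf8 and -0.05 for 5xFAD without it. The 3 red points above 7, all in IRF8KO at 9 months (Hp, Mgst1 and Mt2), rest on 1 count each in WT, so their height depends on the fit.

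At 3 months the export gene was the one of the 10 to pass. Slc40a1 stood at 98.7, 129, 88.1 and 105 CPM in WT and at 300, 328, 238 and 243 CPM in IRF8KO, with no overlap. It rose 2.64-fold (1.40 ± 0.28, edgeR adjusted p = 0.0128), where 4.15% of 13121 genes rose, and the call was lost without IRF8KO replicate 1 (1.37, edgeR adjusted p = 0.0573). Fth1 was at 5572 to 9416 CPM in WT and 3393 to 5796 CPM in IRF8KO, a difference of -0.67 ± 0.41 (95% interval -1.56 to 0.23). Prdx1 was at 424 to 693 CPM in WT and 295 to 450 CPM in IRF8KO (-0.76 ± 0.31, edgeR adjusted p = 0.154; DESeq2 adjusted p = 0.037). Prdx6, Prdx5 and Txn1 differed by 0.21 ± 0.42, 0.25 ± 0.40 and -0.004 ± 0.40. In this experiment the WT libraries also held neutrophil markers, at 0.862% to 5.38% of counts against 7.72% to 16.6% in IRF8KO, and the 80 ribosomal protein genes had a median of -0.69.

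Among other genes at 3 months, where 4.15% of all genes rose and 3.24% fell, 3 of 34 iron genes rose and 0 fell: Cp (4.87 ± 0.64, edgeR adjusted p = 0.00198), Ncoa4, the receptor that delivers ferritin to lysosomes (2.11 ± 0.38, edgeR adjusted p = 0.00744), and Alas1, the first enzyme of haem synthesis (2.05 ± 0.40, edgeR adjusted p = 0.0107). Of 45 antioxidant genes 4 rose and 4 fell. Gsr, Msrb1 and Pgd rose by 2.75, 2.03 and 1.91, and Sod1, Gstp1 and Selenop fell by 1.70, 1.41 and 1.25. Selenop passed in 6 of 14 alternatives. The antioxidant count of 8 dropped to 2 without IRF8KO replicate 1. Mafg, the 1 regulator of 13 to pass (1.15 ± 0.30, edgeR adjusted p = 0.039), did so in 5 of 14 alternatives.

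The effects of Irf8 loss at both ages were compared directly. Of the 10 genes, 5 had a higher effect at 9 than at 3 months and 2 a lower one, against 18.0% and 5.92% of 15512 genes. The difference was 4.28 ± 0.55 for Prdx6 (edgeR adjusted p = 3.94e-05), 3.68 ± 0.57 for Txn1, 3.24 ± 0.49 for Fth1, 2.84 ± 0.54 for Prdx5 and 2.49 ± 0.39 for Prdx1 (edgeR adjusted p from 0.000149 to 0.0012 for these 4). It was -1.70 ± 0.35 for Slc11a1 (edgeR adjusted p = 0.0022) and -1.93 ± 0.52 for Slc40a1 (edgeR adjusted p = 0.0124, and 0.0697 without WT replicate 1 at 9 months). The control groups themselves differed. On a scale common to all 33 libraries Fth1 averaged 7830 CPM in WT at 3 months and 784 CPM in WT at 9 months, and Prdx6 719 and 31.3 CPM, with neutrophil markers at 0.862% to 5.38% and at most 0.000496% of counts. Ribosomal protein genes had a median difference of 2.47. Age and the cells in the sort cannot be told apart here. RLE scaling in place of TMM shifted the median of all genes in this comparison from 0.40 to 0.57, and all 7 genes passed in the same direction under it.

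In the Batf3KO experiment Batf3 itself was at 23.5 to 26.9 CPM in WT and 0.44 to 0.524 CPM in Batf3KO, and neutrophil markers were at or under 0.000516% of counts. Slc11a1 was at 825, 770 and 738 CPM in WT and at 528, 541 and 552 CPM in Batf3KO. It fell to 0.695 of the WT level (-0.53 ± 0.07, edgeR adjusted p = 0.000851), lower in 3 of 3 libraries and called in all 12 alternatives. Hmox1 was at 34.9, 38.7 and 36.4 CPM in WT and at 60.2, 47.8 and 62.4 CPM in Batf3KO. It rose 1.55-fold (0.63 ± 0.12, edgeR adjusted p = 0.0126), and the call was lost without WT replicate 1 (0.60, edgeR adjusted p = 0.0515), WT replicate 2 (0.67, edgeR adjusted p = 0.052) or Batf3KO replicate 1 (0.59, edgeR adjusted p = 0.0768). These were the 2 calls among the 10, where 1.41% of 13128 genes rose and 2.42% fell. Fth1 was higher in Batf3KO without overlap (0.28 ± 0.08) but did not pass in edgeR (adjusted p = 0.0628; 0.0276 in DESeq2). Of the other genes, Lrp1 (-0.42 ± 0.08, edgeR adjusted p = 0.0137) and Mt1 (-0.54 ± 0.12, edgeR adjusted p = 0.0204) passed, each in 7 of 12 alternatives.

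In the conditional knockout 0 of the 10 genes passed, as did 0 of 15512 genes in edgeR (0.0%), with 1 of the 10 at an unadjusted p under 0.05. DESeq2 called 160 genes and 0 of the 10. Slc11a1 was at 78.1, 72.7 and 73.6 CPM in flox. In the Cre libraries it was at 61.0 CPM in replicate 1, whose Irf8 goes against its label, and at 282, 220 and 328 CPM in replicates 2, 3 and 4. With all libraries the difference was 1.58 ± 0.41 (edgeR adjusted p = 0.215). Without the library labelled Cre replicate 1 it was 1.89 (edgeR adjusted p = 4.63e-07), Hmox1 passed as well at 0.89 (edgeR adjusted p = 0.0167), and 952 genes were called. Hmox1 had been at 24.4 to 36.9 CPM in flox and at 20.4 CPM in that library, against 38.1 to 70.3 CPM in the other Cre libraries. Batf3 itself was at 1.93 to 4.57 CPM in flox, at 1.32 CPM in Cre replicate 1 and at 34.7, 67.6 and 47.5 CPM in the others. On the scale of all 33 libraries Batf3 averaged 3.34 CPM in flox and 34.9 CPM in Cre. The WT groups averaged 34.0 CPM at 3 months, 17.7 CPM at 9 months and 29.4 CPM in the Batf3KO experiment. Germline IRF8KO libraries held Batf3 at 0 to 1.72 CPM at 3 months, scaled within their experiment. At 9 months it was at 0 in IRF8KO and 5xFAD/IRF8KO.

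**Figure D4:**
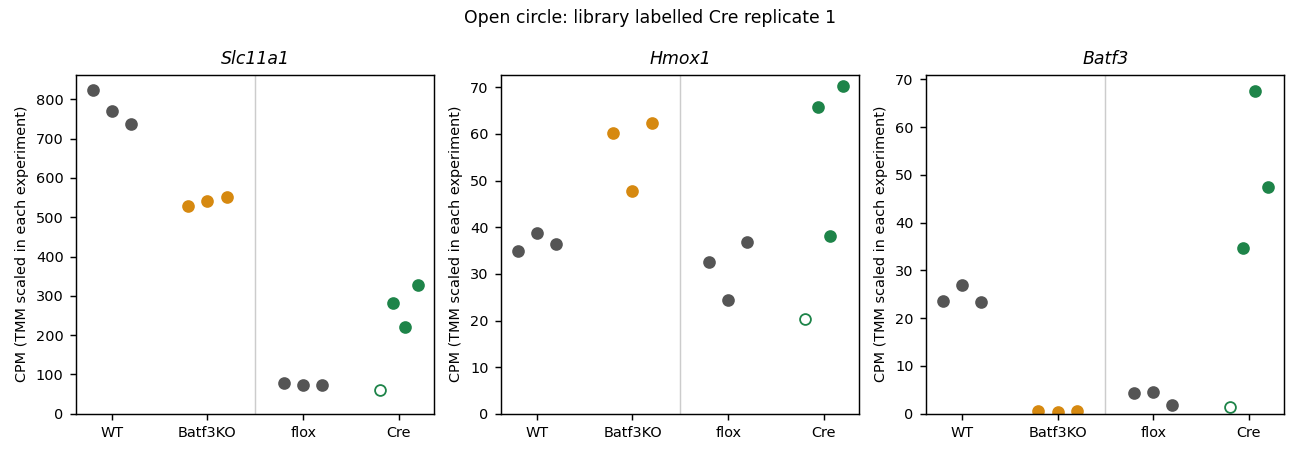
Slc11a1, Hmox1 and Batf3 in each library of the Batf3KO experiment and of the conditional experiment, in CPM scaled within each experiment (linear axes from 0, 1 point per library). The open circle, the library labelled Cre replicate 1, lies at 61.0 CPM for Slc11a1 while the other Cre libraries lie between 220 and 328 CPM. Slc11a1 is below every WT library in Batf3KO and above every flox library in those 3.

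Ferritin and peroxiredoxin genes showed no call in the conditional knockout with or without that library. Fth1 was at 4805, 5725 and 4826 CPM in flox and at 4764, 4021, 5204 and 5157 CPM in Cre (-0.10 ± 0.19, 95% interval -0.50 to 0.31). Prdx1 was lower in Cre without overlap, at 460 to 581 CPM against 582 to 648 CPM, and did not pass (-0.20 ± 0.16, edgeR adjusted p = 0.841). Prdx6 was at 80.6 to 86.0 CPM and 77.2 to 92.4 CPM (-0.01 ± 0.15, 95% interval -0.34 to 0.32), and Slc40a1 at 70.9 to 82.1 CPM and 67.4 to 87.2 CPM (0.10 ± 0.16). Of 32 other iron genes, 41 antioxidant genes and 13 regulators 0 passed, with 5, 6 and 2 at an unadjusted p under 0.05 in edgeR and 0, 1 and 0 called by DESeq2. Without the library labelled Cre replicate 1, 4 of 31, 4 of 41 and 1 of 12 passed, where 952 of 15264 genes did. Against the germline knockout at 3 months, the conditional effect was lower for Slc40a1 by a log2 difference of -1.22 ± 0.30 (edgeR adjusted p = 0.0203), where 2.68% of 17361 genes were lower. That call was lost without any 1 of the flox libraries (edgeR adjusted p = 0.0798, 0.0526 and 0.0569) or Cre replicate 4 (edgeR adjusted p = 0.0547). For Slc11a1 it was 1.29 ± 0.51 (edgeR adjusted p = 0.135), and without the library labelled Cre replicate 1 it passed at 1.61 (edgeR adjusted p = 0.00611). Cp (-6.82 ± 1.04), Ncoa4 (-2.51 ± 0.47), Alas1 (-2.45 ± 0.48) and Gsr (-3.20 ± 0.54) were lower as well, and Selenop (2.60 ± 0.51), Gstp1 (1.97 ± 0.35) and Slc46a1 (1.47 ± 0.39) were higher. Slc46a1 passed in 14 of 21 alternatives, and was lost without any 1 of the flox libraries, IRF8KO replicate 1 or Cre replicates 2 and 4 (edgeR adjusted p from 0.0534 to 0.109). Neutrophil markers were at most 0.0112% of counts in the conditional experiment, where 83 ribosomal protein genes had a median of -0.42.

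Across the 10 groups the levels were set on one scale over all 33 libraries and are described without a test, since the groups come from separate experiments. Fth1 averaged 7830 CPM in WT at 3 months, 5010 in IRF8KO at 3 months, 4740 in flox, 4430 in Cre, 4280 in IRF8KO at 9 months and 3630 in 5xFAD/IRF8KO, each overlapping the next. It was 2740 CPM in 5xFAD, 2000 in Batf3KO, 1760 in the WT group of that experiment and 784 in WT at 9 months, and of these only the Batf3KO pair overlapped. The 9.99-fold span of Fth1 was thus present among the 4 control groups alone. The same held for Ftl1 (3.7-fold), Slc11a1 (13.4-fold), Slc40a1 (7.64-fold) and Prdx1 (5.03-fold), whose highest and lowest groups were both controls.

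Slc11a1 was highest in the WT group of the Batf3KO experiment, at 928 CPM, followed without overlap by Batf3KO at 602 CPM. It was lowest in flox at 69.3 CPM, below WT at 3 months (125 CPM) without overlap. Slc40a1 ran from 532 CPM in WT at 9 months to 69.6 CPM in flox, and the 6 groups above IRF8KO at 3 months (299 CPM) all overlapped their neighbours. Tfrc was highest in 5xFAD/IRF8KO at 104 CPM and lowest in 5xFAD at 4.55 CPM, but spanned 2.8-fold among the controls. Hmox1 was highest in Batf3KO at 63.4 CPM and lowest in 5xFAD/IRF8KO at 15.3 CPM. Prdx6 was between 294 and 1230 CPM in the 14 libraries with neutrophil and red blood cell markers and between 28.2 and 86.0 CPM in the other 19. For Txn1 the ranges were 126 to 399 and 18.0 to 139 CPM, and for Prdx5 397 to 1390 and 81.1 to 411 CPM. Per kilobase of principal transcript, Fth1 led in WT at 9 months with 844 CPM, above Ftl1 at 310, Slc40a1 at 158, Slc11a1 at 148, Prdx5 at 65.1, Prdx1 at 53.2, Txn1 at 20.3, Hmox1 at 17.0, Prdx6 at 13.1 and Tfrc at 2.02.

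**Figure D5:**
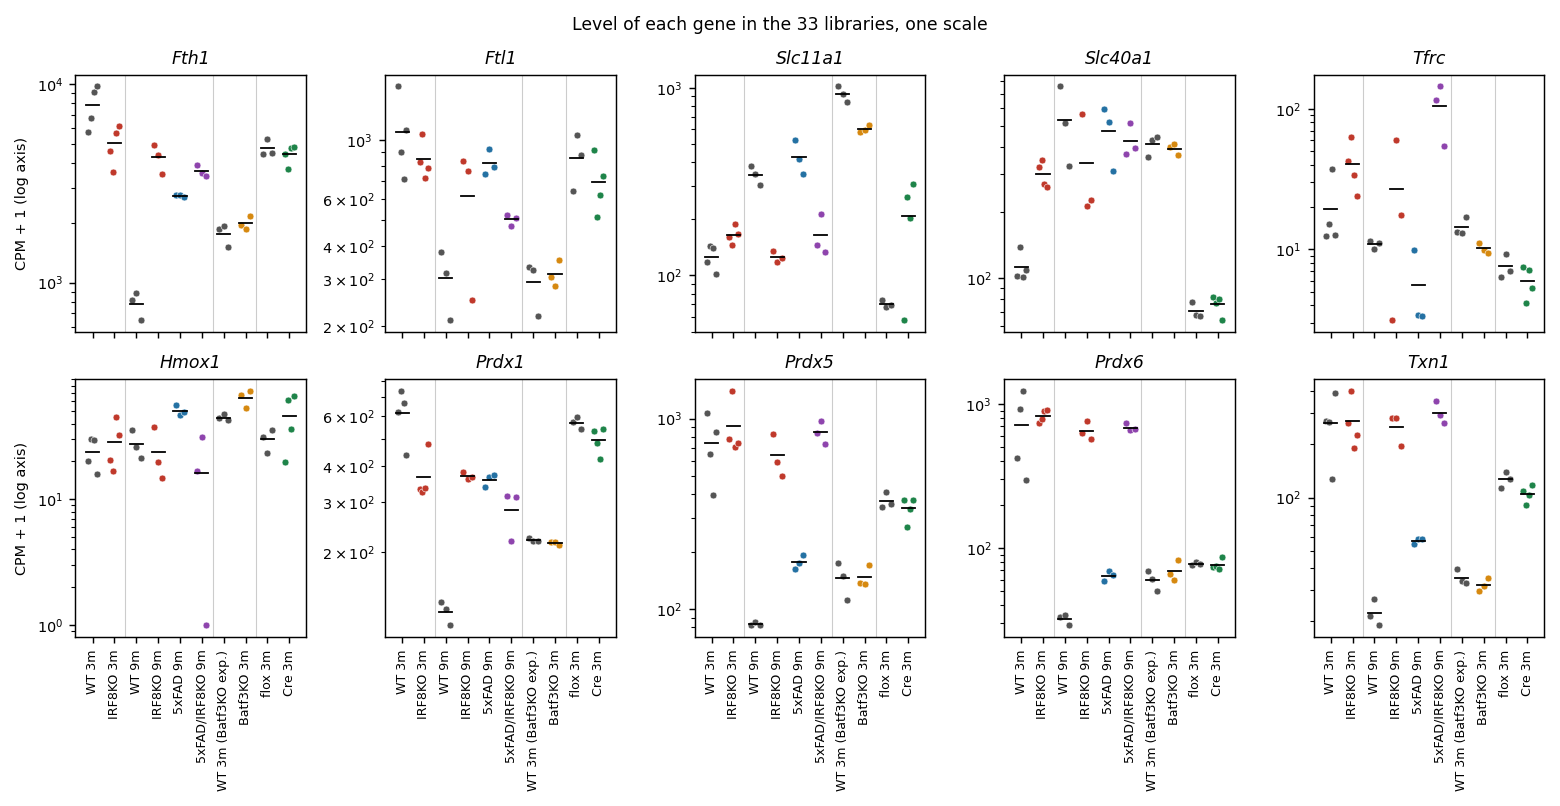
Level of each gene in the 33 libraries as CPM + 1 on a log axis, with TMM scaling over all libraries, 1 point per library, a bar at the group mean and grey lines between experiments. Prdx6 lies at 294 CPM or above in the 4 groups WT 3m, IRF8KO 3m, IRF8KO 9m and 5xFAD/IRF8KO 9m and at 86.0 CPM or below in the other 6.

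Over the 12 libraries aged 9 months some of the genes moved together, described by Pearson's r of log2(CPM + 1) across libraries that share their genotype groups. Prdx5, Prdx6 and Txn1 followed each other (r from 0.981 to 0.991), and Fth1 and Prdx1 did so at 0.92. Fth1 also followed Txn1 at 0.906, Prdx5 at 0.881 and Prdx6 at 0.843. For Prdx1 these values were lower, at 0.697, 0.652 and 0.618. Slc11a1 ran against Prdx6 at -0.896, and Hmox1 with Fth1 at -0.142. Among 12836 genes, those most like Fth1 were Cox6a1 (0.979), Snrpd3 (0.978) and Txndc17 (0.976), and those most like Prdx1 were Tmem256 (0.983), Rplp2 (0.972) and Rpl41 (0.97), of which Rplp2 and Rpl41 encode ribosomal proteins. Those most like Slc11a1 were Gm16861 (0.984), Nectin2 (0.983) and Phf11b (0.979). For Slc40a1 they were Dnajb1 (0.919), Ostm1 (0.891) and Mau2 (0.844), which dropped to 0.814, 0.775 and 0.641 without the 2 libraries farthest from the median. For Hmox1 they were Smpd2 (0.983), Gstt2 (0.963) and Tmem9 (0.958), which dropped to 0.89, 0.748 and 0.716 without 2 such libraries.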

How the data were processed

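Microglia were isolated without enzymes, sorted and sequenced after SMART-Seq v4 amplification, which adds no molecular identifiers, per the labels' protocols. The authors deposited whole-number read counts per gene, in a file per library with 4 summary lines (left out of library sizes and tests) and 3 count columns, of which the column ignoring strand was used. The submitters' processing notes name bcl2fastq, STAR 2.5.2b, Picard 2.17.11, Subread featureCounts and mm10, and the annotation release is not given in the sources used here. Of 54146 gene IDs, 54079 matched GENCODE M21 without the version. Counts in genes were 47.3% to 78.6% of reads. Reads mapping to several places were not counted in genes, which makes genes with near-identical copies uncertain.

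From these counts, edgeR 4.0.16 (R 4.3.3) was run with its default low-count filter, TMM factors, the quasi-likelihood test and Benjamini-Hochberg adjustment over all genes, called at 0.05. The 12 libraries aged 9 months shared a fit; each other comparison used its own groups. SE is the log2 fold change over the square root of F. The 9-month fit was also run on counts simulated from its own means and spreads, for 5xFAD against WT only. The 10 genes, the lists (38 other iron, 46 other antioxidant genes, 15 regulators) and the tests were chosen with earlier results of these data known. Named besides the 10 genes were Irf8, Batf3, up to 3 called list genes per direction with at least 5 CPM, and the 3 genes most like each of 5 members. Txn2 and Park7 were named outside this rule, after their values were seen. Alternatives were RLE scaling, no filter, DESeq2 1.42.0, a replicate block, summed strand columns, pseudogene counts added, single libraries left out and 2-group fits. Sequences come from GENCODE M21 with GRCm38 and from RefSeq.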

Additional observations from a re-analysis of the deposited data

Results flagged for a closer look

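In groups of 4 libraries, single libraries stood apart from the rest of their group for 4 genes: Tfrc at 32.0 CPM in a WT library at 3 months, Prdx1 at 450 CPM and Prdx5 at 1320 CPM in IRF8KO libraries at 3 months, and Prdx6 at 92.4 CPM in a Cre library. Chance alone flags about 1 in 20 groups, and 30 were tested.

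The effect of Irf8 loss differed between 9 and 3 months by the test of that difference for Fth1 (3.24), Slc11a1 (-1.70), Slc40a1 (-1.93), Prdx1 (2.49), Prdx5 (2.84), Prdx6 (4.28) and Txn1 (3.68), on the log2 scale. It differed between the conditional and the germline knockout at 3 months for Slc40a1 (-1.22). Slc11a1 (1.29) passed in that comparison without the library labelled Cre replicate 1 (1.61, edgeR adjusted p = 0.00611).

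For Fth1 (-2.10), Ftl1 (-1.80), Tfrc (3.01) and Prdx1 (-2.01), given as the 5xFAD effect without Irf8 minus that with it, every 5xFAD library lay on one side of the WT mean and every 5xFAD/IRF8KO library on the other side of the IRF8KO mean. For Fth1, Ftl1 and Tfrc the libraries without Irf8 overlapped between these groups. The fitted effects of Hmox1 and Slc40a1 also differed in sign, with libraries on both sides of a mean. This split of directions was not tested, and no test of the difference is drawn on for these genes, since their choice names this comparison.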

How the results depend on the processing

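The number of the 10 genes called changed by more than 1.5 times under these settings, and the cause was not tested. IRF8KO at 3 months gave 2 with DESeq2 against 1. 5xFAD against WT gave 3 with RLE scaling, 3 with no filter and 3 with the replicate block against 5, and the difference of the 5xFAD effects gave 1 with the block and 5 with DESeq2 against 2. Batf3KO gave 1 with the block against 2 (Hmox1, 0.62, edgeR adjusted p = 0.0583), IRF8cKO gave 1 with no filter against 0, and the conditional minus germline effect gave 0 with no filter and 0 with the block against 1. Leaving out 1 library gave 0 to 1 for IRF8KO at 3 months, 6 to 7 at 9 months, 5 to 5 on the 5xFAD background, 0 to 2 for 5xFAD with Irf8, 0 to 0 without it, 0 to 3 for the difference of the effects, 1 to 2 for Batf3KO, 0 to 2 for IRF8cKO, 6 to 8 for the 9 minus 3 month effect and 0 to 2 for the conditional minus germline effect. No called value of the 10 genes changed sign in any alternative run. Highest and lowest group were kept for 9 of 10 genes under each of 3 alternatives of the levels. Counts over all genes were 1655 without the filter and 2583 with DESeq2 against 970 for IRF8KO at 3 months; 163, 826 and, with only the 2 groups, 4546 against 290 for 5xFAD with Irf8 (105 with the block); 320, 852 and 0 against 24 without Irf8 (0 with the block, 37 with summed strand columns); 238 and 912 against 64 for the difference of the effects (9 with the block); 998 and 814 against 503 for Batf3KO (216 with the block); 618 and 160 against 0 for IRF8cKO; and 2330 with DESeq2 against 1223 for the conditional minus germline effect (293 with the block). RLE scaling changed the split of higher and lower calls from 264 and 26 to 166 and 39 for 5xFAD with Irf8, and from 28 and 36 to 30 and 18 for the difference of the effects. Same-numbered libraries of 2 groups deviated together with r from -0.153 to 0.167. Libraries with different numbers were not compared, so this check cannot decide whether the numbers pair the samples. The main fits took no pairing. Among tested results the block also ended the calls of Ftl1 in IRF8KO at 9 months (1.03, edgeR adjusted p = 0.0559) and, for the conditional minus germline effect, of Slc46a1, Ncoa4 and Selenop (edgeR adjusted p = 0.14, 0.0593 and 0.0737). Low counts limit Tfrc, which held as few as 5 at 9 months. The shallowest library was WT replicate 3 at 9 months, with 605376 counts in genes. In it Tfrc rested on 9 counts, Txn1 on 16, Hmox1 on 18 and Prdx6 on 25, so their WT levels share this limit. Hmox1 held 0 counts in 5xFAD/IRF8KO replicate 3, a library of 11723815 counts in genes.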
